A study of Mus musculus with 4 samples.

Results

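Neurexins, neurexophilins and neuroligins are the proteins by which the membranes on either side of a synapse hold and recognise each other, and 7 genes of these families, Nrxn2, Nrxn3, Nxph1, Nxph2, Nlgn1, Nlgn2 and Nlgn3, were followed in the medial ganglionic eminence (MGE) of the mouse embryo. They were chosen by name from the 32285 genes of the count matrices, with earlier results of these data known. The MGE is the ventral forebrain zone that produces cortical interneurons and projection neurons of the basal ganglia. The authors isolated MGE cells of E14.5 embryos (mixed C57/BL6 and ICR background) and sequenced their RNA cell by cell on the 10x Genomics platform. A pair of libraries labelled St18 (−/−) is called null here, and the pair labelled wildtype is called WT. The product of St18 is a transcription factor of the Myt1 family with zinc fingers, and the comparison of null with WT asks what its loss changes in MGE cells.

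Per the study's methods, the null allele came from mice with loxP sites around exons 9 and 10 of St18, crossed to a germline Cre driver, E2a-Cre, which shifts the reading frame and adds an early stop codon. Null embryos and WT littermates came from heterozygous parents. Embryos of a genotype were pooled after a rapid PCR, and their number and sex were not stated, so a p-value measures the spread between these libraries and no more. All groups are whole MGE dissections of a single age, and cells of neighbouring regions were in them.

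Neurexins sit mainly on the presynaptic membrane, and their genes make a long alpha and a short beta form from separate start sites. Neuroligins are postsynaptic partners that bind neurexins across the cleft. Nlgn1 is known from excitatory synapses, Nlgn2 from inhibitory ones and Nlgn3 from synapses of either kind. Neurexophilins are secreted glycoproteins that bind the extracellular part of alpha-neurexins. MGE-derived interneurons migrate for days before they form synapses, so in these embryos the transcripts are measured ahead of most synapse formation.

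Nrxn2 lies on chromosome 19 at 6418731-6544169 of GRCm38, Nrxn3 on chromosome 12 at 88722876-90334935, Nxph1 on chromosome 6 at 8948431-9249032 and Nxph2 on chromosome 2 at 23321246-23401973, each on the plus strand. Nlgn1 lies on chromosome 3 at 25426215-26332460 and Nlgn2 on chromosome 11 at 69823122-69837784, both on the minus strand. Nlgn3 is X-linked, at 101299168-101325963 on the plus strand. The RefSeq start sites used held 3 for Nrxn3, 2 for Nlgn1 and 0 for Nrxn2 and Nlgn3. Counts are sums over a whole gene, so alpha and beta forms of the neurexins were not told apart. On the opposite strand, exons of Gm14964 overlap those of Nrxn2. Gm14964 held 7346 unique molecular identifiers (UMIs) in neurons where Nrxn2 held 12512, and exons of A830092H15Rik, with 160 UMIs, overlap those of Nlgn1. The use of strand in the counting was not stated, so these pairs may share reads.

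The 4 libraries held between 70991150 and 92984713 UMIs. Barcodes with at least 3000 UMIs and at most 10% mitochondrial UMIs were kept as cells, which left 10166 neurons and 7822 progenitors, between 1549 and 3334 cells of a class per library. Neurons and progenitors were told apart by marker genes, and the 7 genes were kept out of the clustering. Any 2 libraries shared between 4 and 11 barcodes, where chance would give between 2.29 and 4.40, and each pair shared more than its own chance value. St18 was higher in null replicate 2 than in any other library, with 76.3 CPM (UMIs of a gene per 1e+06 UMIs of the class in that library) in neurons, where null replicate 1 had 25.1 and the WT libraries had 43.9 and 59.4. Counts of the whole gene do not show the deleted exons and include a recombined transcript that persists, so they do not test the label. In neurons the fitted null over WT difference of St18 was -0.20 on the log2 scale (SE 0.36, adjusted p = 0.81, edgeR). The study itself reported significantly less St18 transcript in null than in WT neurons, by a Wilcoxon rank-sum test and not by a fit to sums per library. By immunohistochemistry it found no St18 protein signal in null embryos. Female cells, read from Xist, were 32.1% and 61.3% of the neurons and progenitors of null replicates 1 and 2 and 0% of either WT library, so genotype and sex of the pools cannot be fully told apart. Null replicate 2 was also the deepest library per cell, with a median of 8155 UMIs per neuron against 5498 to 5924 in the others. It lost the most barcodes to the mitochondrial limit, 489 against 67 to 185 in the others.

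The first question was where in the path from progenitor to neuron these genes are used. Each of the 7 genes was higher in neurons than in progenitors in every library, and 6 of them were at least 2-fold higher in each of the 4. Of 14014 genes with at least 10 UMIs per library, 11.3% met that rule, and the median log2 ratio was 0.08 over genes with a ratio in every library and 1.70 over the 7. These values are descriptions, because neurons and progenitors were defined by expression in the same cells. Levels are CPM of UMIs summed over the cells of a class.

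**Figure D1:**
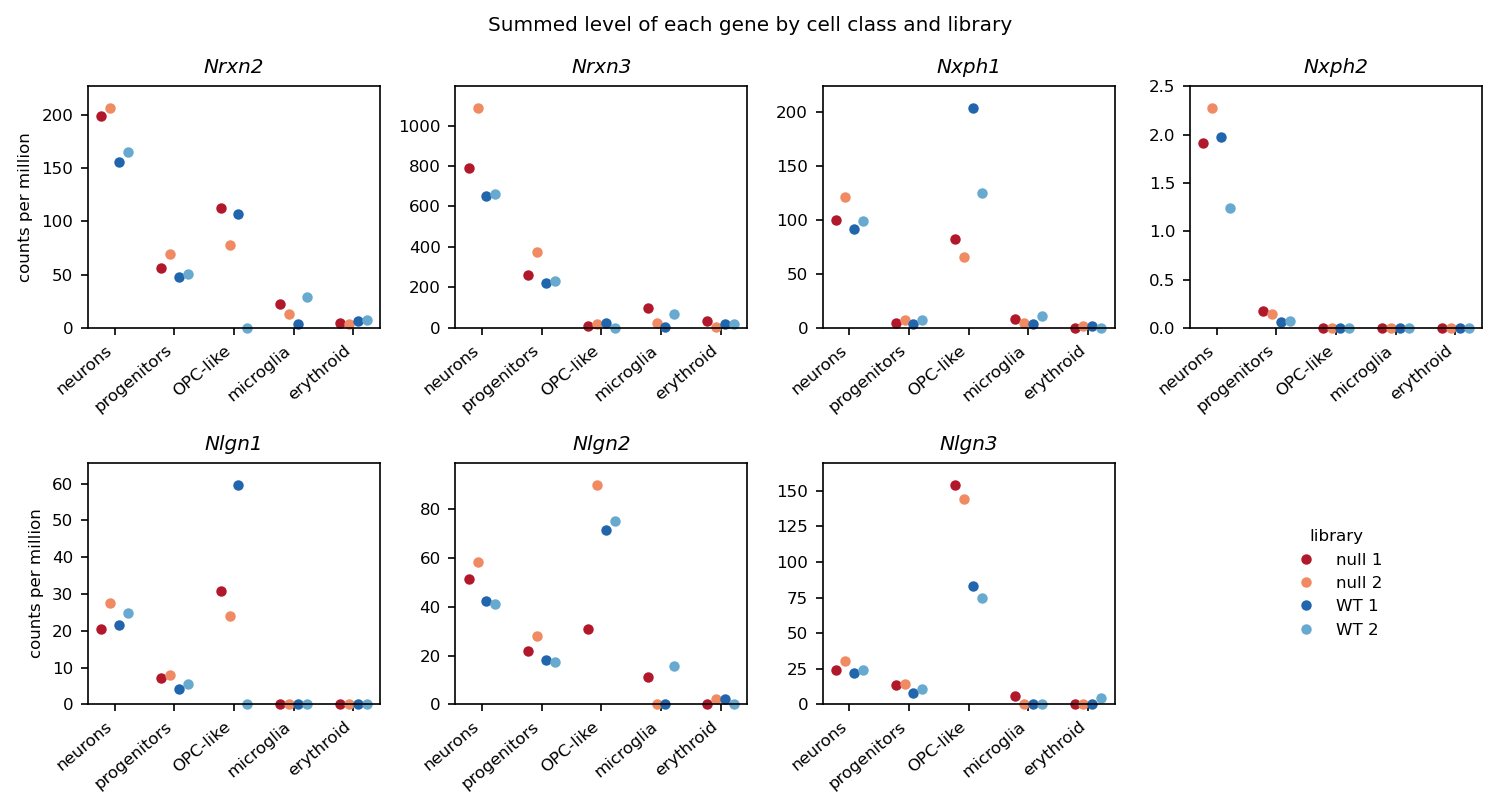
Summed level of each gene in CPM (vertical axis, linear from 0, a different range in each panel) in 5 cell classes (horizontal axis), with 1 point per library, null in reds and WT in blues. Neurons lie above progenitors in every panel and library, and the 33 oligodendrocyte precursor-like (OPC-like) cells lie far above progenitors for Nxph1 and Nlgn3.

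Among the receptors, Nrxn3 was present in most neurons. Neurons of null replicate 1 held 792 CPM, those of null replicate 2 held 1084 CPM, and the WT libraries held 652 and 660 CPM. Progenitors held 260, 374, 220 and 230 CPM in the same order, so the ratio was even across libraries, with a mean log2 ratio of 1.56 ± 0.04 (SD, n = 4). When each cell was thinned to 3000 UMIs, 83.2% of neurons and 43.0% of progenitors had a Nrxn3 UMI, against 5.38% of 93 microglia and 3.27% of 153 erythroid cells, which should lack it. The median depths of these classes were 5992, 9038, 10079 and 11387 UMIs. Nrxn2 was at 199, 206, 156 and 165 CPM in neurons and at 56.5, 69.5, 47.4 and 50.3 CPM in progenitors, a mean log2 ratio of 1.70 ± 0.10 (SD, n = 4). Its share after thinning was 40.4% in neurons, 14.7% in progenitors and 6.45% in microglia.

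The secreted ligand Nxph1 was scarce in progenitors. Neurons held 99.8, 121, 91.8 and 98.7 CPM (null 1, null 2, WT 1, WT 2, as in all lists of 4 below) and progenitors 4.79, 7.75, 3.35 and 7.18 CPM. The mean log2 ratio was 4.23 ± 0.45 (SD, n = 4), or 18.7-fold. After thinning, a Nxph1 UMI was found in 19.7% of neurons, 1.56% of progenitors, 2.15% of microglia (2 cells) and 0.654% of erythroid cells (1 cell), so the progenitor share lay between those of 2 classes that should lack the gene. Before thinning, between 25.6% and 36.0% of neurons per library had one.

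Nxph2 was rare everywhere. Its neuron level was 1.91, 2.27, 1.97 and 1.24 CPM, from 128 UMIs in all, and progenitors held 10 UMIs. The 4 libraries held 5, 3, 1 and 1 progenitor UMIs, so the ratio of 14.9 over their sum has a 95% counting interval of 7.84 to 31.8. Only 0.462% of neurons and 0.0639% of progenitors had a UMI after thinning, and 0 of 93 microglia. The 2 other neurexophilin genes on the list of family genes were near absent, with 0.0529 to 0.282 CPM of Nxph3 and 0.141 to 1.48 CPM of Nxph4 in neurons.

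The ratios of the 3 neuroligins lay below those of the neurexophilins. Nlgn1 stood at 20.6, 27.5, 21.6 and 24.8 CPM in neurons and at 7.18, 7.94, 4.26 and 5.54 CPM in progenitors, a mean log2 ratio of 1.95 ± 0.37 (SD, n = 4). Nlgn2 stood at 51.4, 58.2, 42.1 and 41.0 CPM in neurons and 21.8, 27.8, 18.3 and 17.3 CPM in progenitors, a mean log2 ratio of 1.19 ± 0.08 (SD, n = 4). Nlgn3 was the gene that missed the 2-fold rule. It held 24.1, 30.8, 22.3 and 23.9 CPM in neurons. In progenitors WT held 8.33 and 10.5 CPM, null replicate 1 held 13.9 CPM and null replicate 2 was the highest, and the ratio of neurons over progenitors in null replicate 1 was 1.73-fold (counting interval 1.51 to 1.98). After thinning, the shares of neurons and progenitors with a UMI were 5.95% and 1.59% for Nlgn1, 13.2% and 6.32% for Nlgn2, and 6.66% and 3.49% for Nlgn3. Microglia had 0%, 4.30% and 1.08%, from 0, 4 and 1 of 93 cells, and the 0 allows a share of up to 3.23%.

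In a small glial class Nlgn3 was higher than in neurons and Nrxn3 nearly absent. The 33 cells with oligodendrocyte precursor markers held Nlgn3 at 154, 144, 83.4 and 75.0 CPM, from 15, 24, 7 and 3 UMIs, above the neurons of every library. Nxph1 was at 82.0, 65.8, 203 and 125 CPM in them, from 8, 11, 17 and 5 UMIs. Nlgn2 was at 30.8, 89.7, 71.5 and 75.0 CPM, from 3, 15, 6 and 3 UMIs, above the neurons of every library but null replicate 1. Nrxn3, the gene with a UMI in most neurons, held 1, 3, 2 and 0 UMIs in these cells, at most 23.8 CPM. With between 4 and 11 such cells per library no test was run.

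The next question was which neurons carry each gene. Neurons were clustered on their own, and 19 clusters with at least 20 cells in every library were described, by number and leading genes. A name ending in -like was given from at least 3 markers, each detected in 25% of the cluster and at least 2-fold above the other neurons. Clusters are a description and carry no p-value. Levels of a cluster are means over the 4 libraries with their SD, and 2 clusters are called apart where the ranges of their libraries did not overlap.

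**Figure D2:**
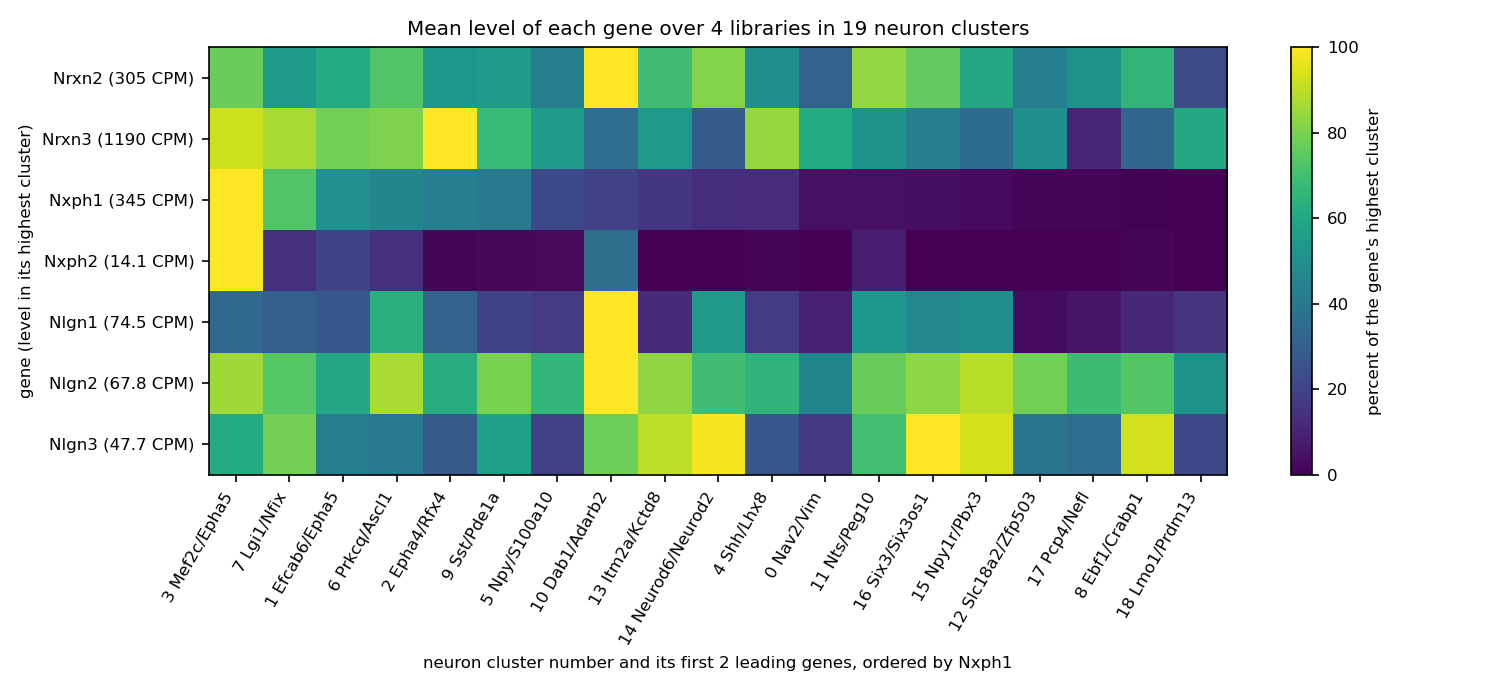
Mean level over 4 libraries of each gene (rows) in 19 neuron clusters (columns, ordered from the highest to the lowest Nxph1), as a percent of the gene's level in its highest cluster, which is given in CPM beside its name. The bright cells of Nxph1 and Nxph2 are on the left, those of Nrxn2, Nlgn1 and Nlgn2 meet in cluster 10, and those of Nlgn3 lie on the right, in clusters 16, 14, 15 and 8.

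Nxph1 had its 3 highest levels in clusters named for interneurons or for the caudal source of them, and low levels in the LGE-like clusters. It was highest in cluster 3, led by Mef2c, Epha5 and Thbs1 and named cortical interneuron precursor-like, at 337, 325, 319 and 399 CPM, a mean of 345 ± 36.8 (SD, n = 4). Every library of that cluster lay above every library of cluster 7, the next, which held 217, 287, 245 and 256 CPM. Cluster 7 was named CGE-like (for the caudal ganglionic eminence, another source of interneurons) by Nr2f2, Prox1 and Htr3a. It also held the MGE markers Nkx2-1 and Lhx6 at 424 and 581 CPM, where cluster 8, described below, held 23.2 and 26.1 CPM. The name thus does not settle its origin. Cluster 1, cortical interneuron precursor-like by Maf, Ackr3 and Npy, had a mean of 175 ± 30.8 CPM and did not lie apart from clusters 7 and 6. At the low end, cluster 8, LGE-like (from the lateral ganglionic eminence, the source of striatal neurons), held 11 Nxph1 UMIs in 511 cells, 2.27 ± 2.28 CPM, so that cluster 3 was 152-fold higher, a log2 range of 7.25 that was 8.26 without null replicate 2, which held most of the level in cluster 8. Cluster 18, led by Lmo1, Prdm13 and St18, held 0 Nxph1 UMIs in 156 cells, where 3 counts would be 3.09 CPM. The other LGE-like clusters, 15, 16 and 12, stood at 9.76, 14.3 and 4.75 CPM.

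Nxph2 was highest in the same cluster. Of its 128 neuron UMIs, 72 were in cluster 3, at 14.1 ± 3.59 CPM (SD, n = 4, between 10.5 and 18.9), and 12 and 18 were in clusters 10 and 1. In 8 of the 19 clusters no Nxph2 UMI was found, and 14 of the 19 held at most 3. Cluster 3 was at least 32.0-fold higher than cluster 2, whose 3 UMIs are at the limit that counting sets. On the log2 scale the range shrank to 3.91 with male cells alone and 4.44 without null replicate 1. The pattern of Nxph1 over the 19 clusters had Pearson's r of 0.59 with that of Nxph2 and 0.63 with that of Nrxn3, across clusters that share their libraries and differ in depth. The r with Nxph2 rests on the few clusters with more of its UMIs.

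The order of the clusters for Nrxn3 differed from that for Nxph1. Its highest level was in cluster 2, led by Epha4, Rfx4 and Sh3rf3, at 1194, 1463, 1041 and 1064 CPM, and clusters 3, 7, 4, 6 and 1 followed with means from 1101 down to 936 CPM, each overlapping the next. Cluster 4, led by Shh, Lhx8 and Zic1, held Nrxn3 at 1002 ± 344 CPM and Nxph1 at 44.4 ± 19.1 CPM. The LGE-like clusters 15 and 8 held Nrxn3 at 423 and 401 CPM, and cluster 14, led by Neurod6 and Neurod2, held 347 CPM. Cluster 17, led by Pcp4, Nefl and Gap43 and the shallowest with a median of 3720 UMIs per cell, held 92.0, 142, 98.8 and 183 CPM, below every library of every other cluster. Highest and lowest cluster differed 9.23-fold. In cells with at least 5000 UMIs, only clusters with at least 10 such cells in every library were compared. Cluster 14 was the lowest of these, and the log2 range was 1.78 in place of 3.21. Cluster 17 had 22 neurons in WT replicate 1 before that depth limit, so it may have been left out there.

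**Figure D3:**
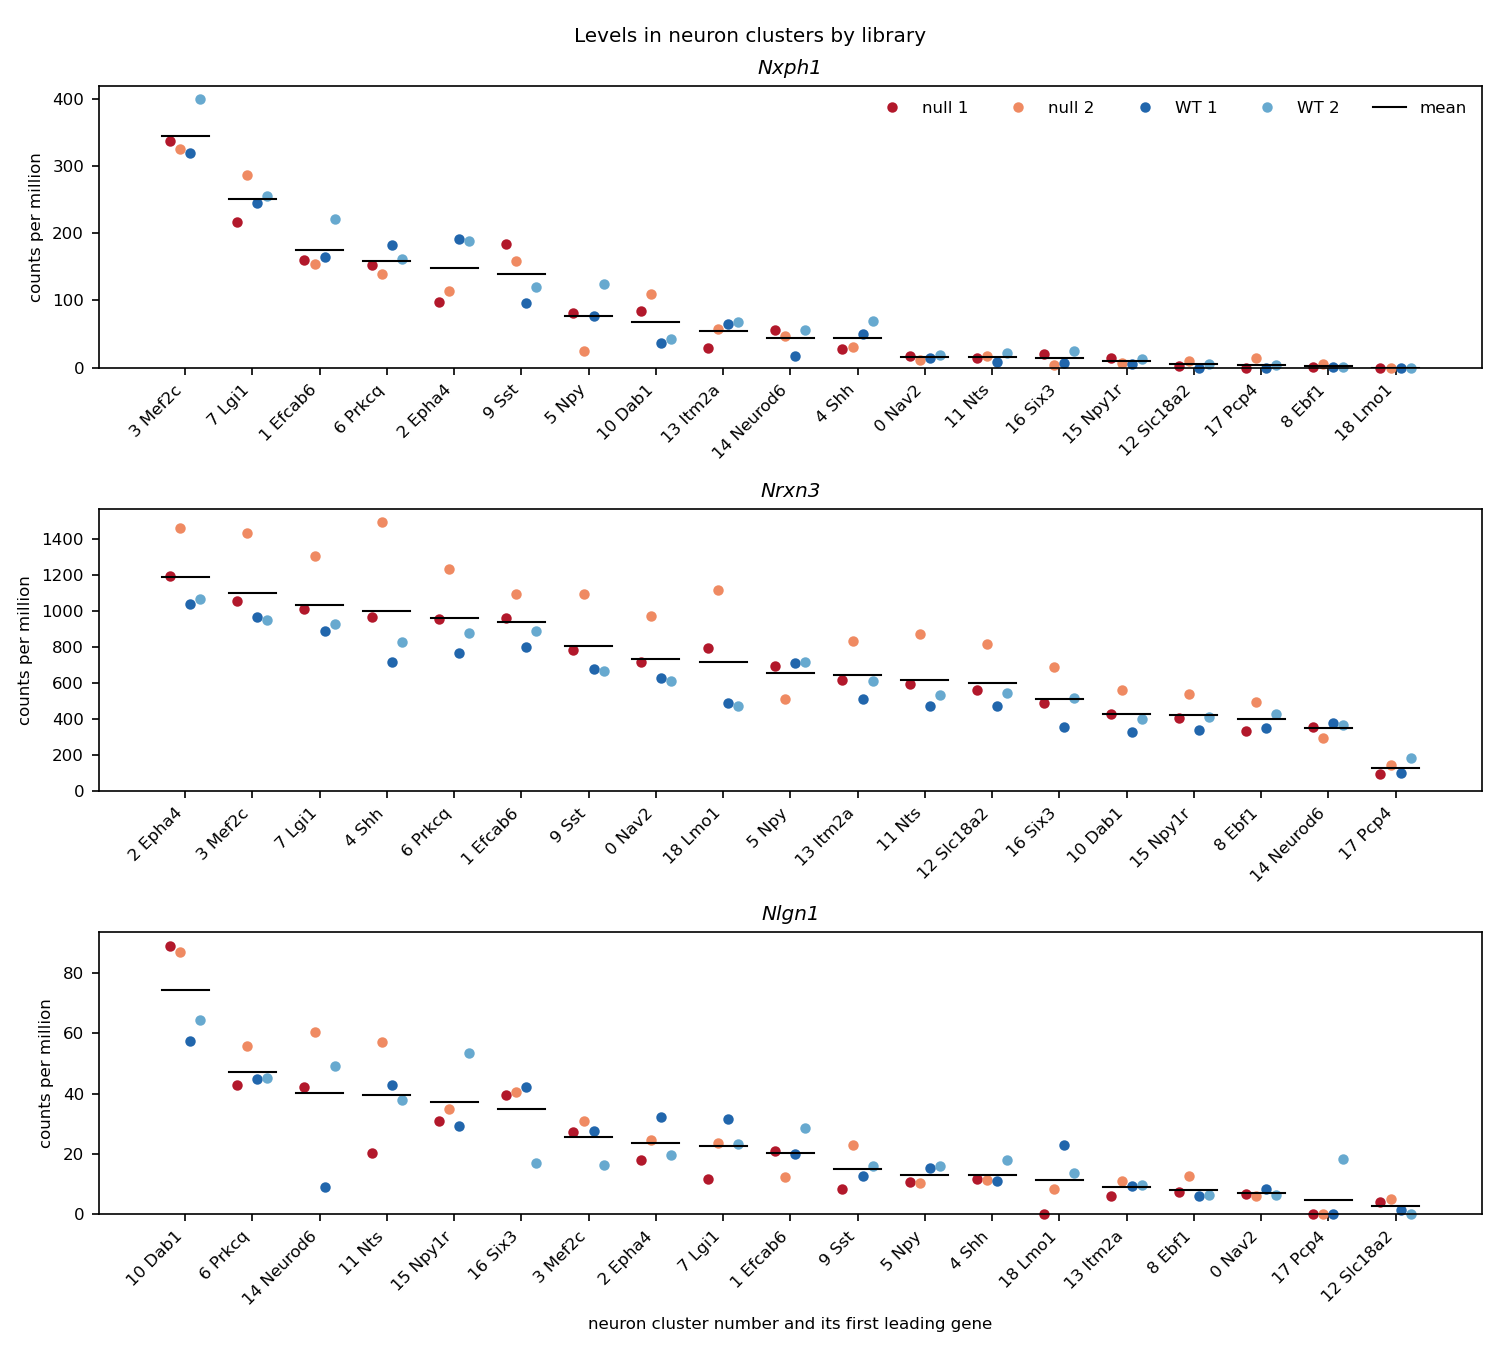
Levels of Nxph1, Nrxn3 and Nlgn1 in CPM (vertical axis, linear from 0) in the 19 neuron clusters (horizontal axis, number and first leading gene, ordered by the mean), with 1 point per library and a line at the mean of the 4. Cluster 3 lies above every other cluster for Nxph1 in each library, cluster 10 has the highest mean of Nlgn1 with a library of cluster 14 inside its range, and null replicate 2 is the highest library for Nrxn3 in 16 of 19 clusters.

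Nrxn2 followed another order. Cluster 10, led by Dab1, Adarb2, Cxcl14 and Nrp2, was highest at 311, 401, 254 and 255 CPM, followed by cluster 11, led by Nts, Peg10 and Calb1, at 255 ± 31.2 CPM and cluster 14 at 248 ± 43.9 CPM. The lowest were cluster 0, whose leading genes include the progenitor genes Vim and Ccnd2, at 97.6 ± 2.79 CPM, and cluster 18 at 70.7 ± 29.2 CPM. Cluster 0 lay apart from the next cluster above it, and no other neighbours in the order did. Across clusters, Nrxn2 had r of 0.78 with the summed neuron markers and Nrxn3 had r of -0.65, and r between the 2 neurexins was -0.13 (19 clusters).

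Nlgn1 had its highest mean in cluster 10 and a graded spread below it. Cluster 10 held 89.0, 86.9, 57.5 and 64.5 CPM, each above every library of cluster 6, the next, at 42.7, 55.9, 44.9 and 45.1 CPM. Clusters 14, 11, 15 and 16 followed between 40.1 and 34.8 CPM, with libraries of cluster 14 spread from 9.04 to 60.3 CPM, so that cluster 14 overlapped cluster 10. With male cells alone, cluster 6 was the highest of the clusters with at least 10 such cells in every library. Cluster 10 had 46 neurons in null replicate 2 before the limit to male cells, so it may have been left out there. The lowest level was 2.61 ± 2.30 CPM in cluster 12, LGE-like and with the cell cycle genes Mki67 and Top2a among its leading genes. Highest and lowest differed 28.5-fold, a log2 range of 4.83, which was 2.71 with the coarser clusters of resolution 0.8.

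Nlgn2 had the narrowest range of the 7 genes, and Nlgn3 was high in 3 of the 4 LGE-like clusters. Nlgn2 ran from 67.8 ± 13.7 CPM in cluster 10 to 30.6 ± 2.71 CPM in cluster 0, a 2.21-fold range in which no neighbours lay apart. Nlgn3 was highest in cluster 16 at 47.7 ± 11.1 CPM, cluster 14 at 47.1 ± 10.5 CPM, cluster 15 at 44.7 ± 19.5 CPM and cluster 8 at 44.4 ± 9.26 CPM. Clusters 16, 15 and 8 were LGE-like, and the fourth LGE-like cluster, 12, held 18.3 ± 4.68 CPM. It stood at 29.4 ± 3.88 CPM in cluster 3, 13.5 ± 3.39 CPM in cluster 2 and 8.03 ± 2.89 CPM in cluster 0, and no neighbours in its order lay apart. Nlgn3 had r of 0.74 with the neuron markers and -0.79 with the progenitor markers over the 19 clusters, and Nlgn2 had 0.65 and -0.58.

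Nrxn3 was detected more often in neurons with a Nxph1 UMI than in those without, in each of the 4 libraries. After thinning, 90.5%, 95.9%, 87.0% and 90.3% of neurons with a Nxph1 UMI had a Nrxn3 UMI, and 82.3%, 86.3%, 79.0% and 78.0% of neurons without one did. Nrxn2 showed no such order in every library: 49.1%, 47.6%, 39.8% and 35.3% with a Nxph1 UMI against 42.1%, 42.0%, 35.4% and 38.3% without. No test over cells was run.

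Genes with the most similar pattern were taken by Pearson's r over the 19 clusters, among genes with a mean of at least 20 CPM, and are a description of clusters that share their libraries. For Nxph1 these were Erbb4, the neuregulin receptor of migrating interneurons, at 0.950, Neto1 at 0.917 and Srgap2 at 0.880. For Nxph2 they were Mef2c at 0.778, Dlgap1 at 0.754 and Pde4dip at 0.736. These 3 values rest on few clusters, because Nxph2 had at most 3 UMIs in 14 of the 19. For Nrxn3 they were Trrap at 0.965, Rsbn1l at 0.963 and Kdm5b at 0.956. For Nrxn2 they were Sptbn1 at 0.910, Syt1, a calcium sensor of synaptic vesicles, at 0.904 and Epb41l1 at 0.900. For the neuroligins they were C130073E24Rik at 0.917, Snrk at 0.826 and Tsn at 0.810 with Nlgn1, Rfng at 0.896, Sbk1 at 0.873 and Arhgap33 at 0.871 with Nlgn2, and Kcnc1 at 0.966, Atp9a at 0.965 and Podxl2 at 0.950 with Nlgn3.

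Progenitors were not uniform either, and the radial glia-like clusters held little Nrxn3 and the most Nlgn3. Of 15 progenitor clusters with at least 20 cells in every library, the radial glia-like clusters 9, 4 and 2 held the least Nrxn3 beside cluster 8. Cluster 2, led by Sparc, Anxa2 and Rgcc, held 17.2, 36.5, 14.4 and 23.7 CPM and cluster 4, led by Rgcc and Hes5, held 26.7, 28.6, 12.8 and 24.2 CPM. Microglia and erythroid cells, which should lack Nrxn3, held 56.0 and 20.3 CPM, so expression in clusters 2 and 4 was not told apart from free RNA. Cluster 13, led by Npy, St18 and Nav2, held 782, 999, 662 and 590 CPM of Nrxn3, and cluster 0, led by Nav2 and Lhx6, held 631 ± 171 CPM. These levels lie in the range of the neuron clusters. The summed neuron markers were also high in progenitor cluster 13, at 4426 CPM with Lhx6 at 514 CPM. Neuron cluster 18 held 4161 and 488 CPM, so progenitor cluster 13 lies near the border of the classes. The part of such border cells in the Nrxn3 level of progenitors was not tested.

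For Nlgn3 the radial glia-like clusters came first. The radial glia-like cluster 9, led by Fabp7, Bcan, Apoe and Slc1a3, held 40.5, 36.6, 28.7 and 49.2 CPM, and the radial glia-like clusters 4 and 2 followed at 22.7 ± 5.56 and 18.7 ± 4.06 CPM, each overlapping the next. Cluster 13, the highest for Nrxn3, held 9.87 ± 3.25 CPM of Nlgn3, cluster 0 held 5.47 ± 1.48 CPM and cluster 10, led by Tuba1c and Aspm, 3.07 ± 2.93 CPM. Nlgn1 had the same 3 clusters in front, with 16.5 ± 7.71 CPM in cluster 9, 10.4 ± 3.06 CPM in cluster 4 and 8.26 ± 1.35 CPM in cluster 2. Nrxn2 and Nlgn2 varied less, from 92.5 to 33.6 CPM and from 32.4 to 10.3 CPM. Nxph1 reached 25.2 ± 3.86 CPM in cluster 5 and was at or below 13.6 CPM in the others. Cluster 5 had globins, Maf and Sst among its leading genes, and the part of mixed droplets or free RNA in its level was not tested.

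**Figure D4:**
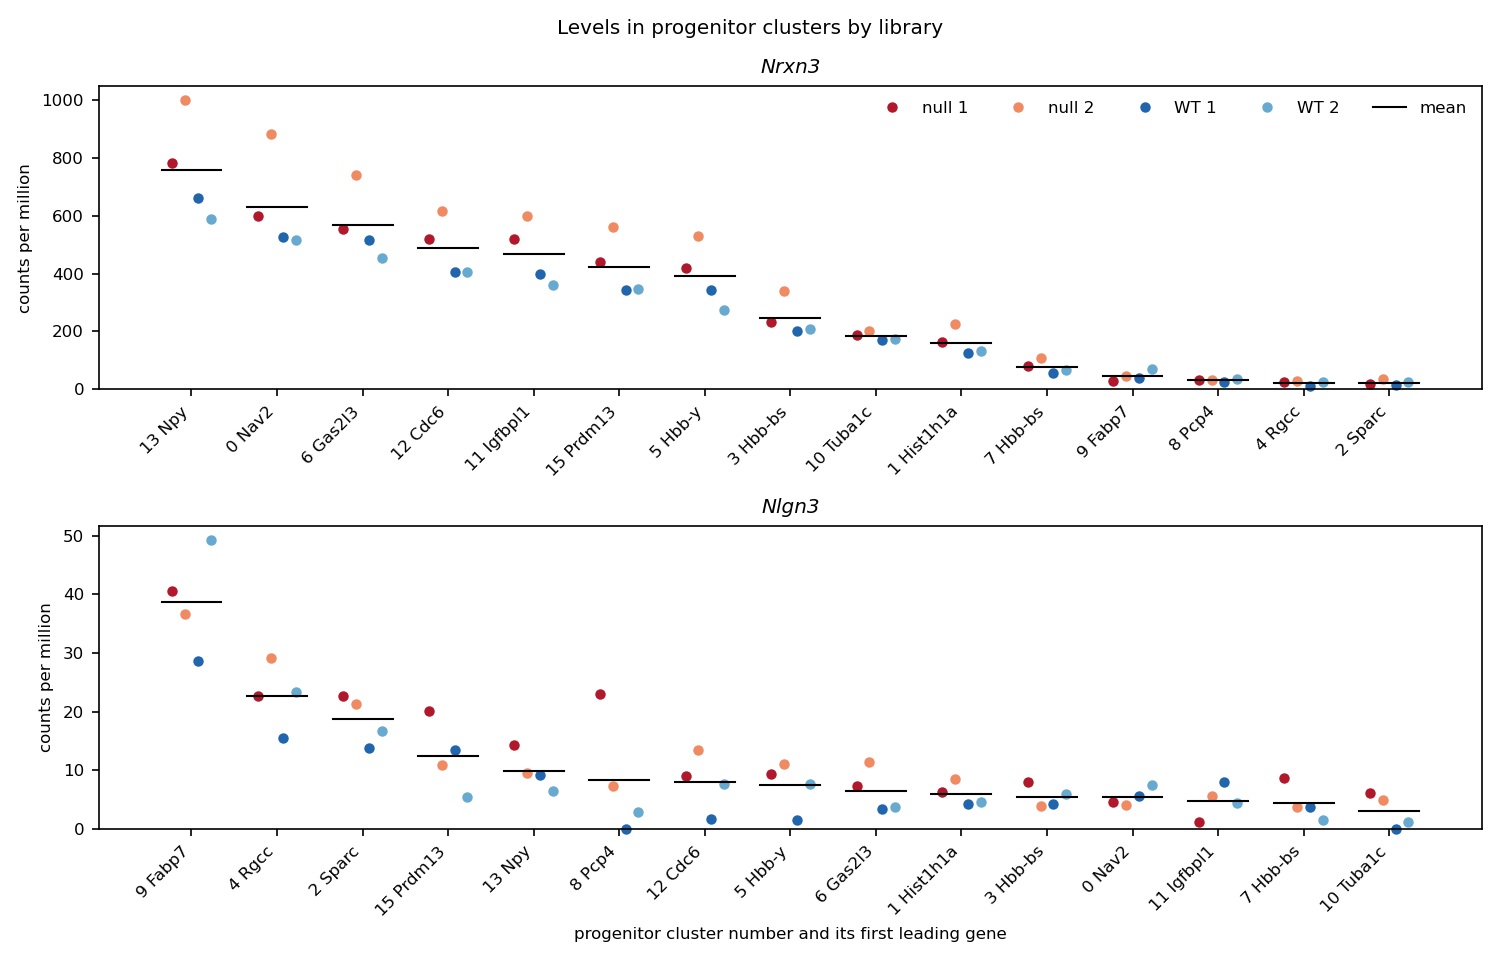
Levels of Nrxn3 and Nlgn3 in CPM (vertical axis, linear from 0) in 15 progenitor clusters (horizontal axis, number and first leading gene, ordered by the mean of each gene), with 1 point per library and a line at the mean of the 4. The radial glia-like clusters 9, 4 and 2 are the 3 highest for Nlgn3 and among the 4 lowest for Nrxn3.

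The comparison of null with WT asked whether loss of St18 changes the level of these genes within a class. The test was run on 1 sum of UMIs per library for each class, with edgeR's quasi-likelihood test over all genes and Benjamini-Hochberg adjustment. None of the 7 genes passed an adjusted p of 0.05 in neurons, where 10 of 13622 genes did (0.0734%) and 2350 had an unadjusted p under 0.05. None of 6 passed in progenitors, where 2 of 13586 genes did (0.0147%) and 2313 had an unadjusted p under 0.05, and Nxph2 fell under the count filter there. Xist, the gene used to read sex, had the smallest adjusted p in either class, so these calls include the sex difference of the pools. DESeq2 on the same sums called 2.17% of genes in neurons and 2.32% in progenitors and 0 members in either class, and it gave no adjusted p to Nxph2 in neurons or to Nxph1 and Nlgn1 in progenitors. The neurons of the libraries were spread unevenly over the clusters. Cluster 2, the highest for Nrxn3, held 336 and 444 null and 97 and 67 WT neurons, and cluster 5 held 82 and 51 null and 327 and 266 WT neurons. A difference summed over neurons thus includes the mix of clusters. The median log2 fold change over the members was 0.19 in neurons and 0.28 in progenitors, beside 0.00 over all genes tested in either class.

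**Figure D5:**
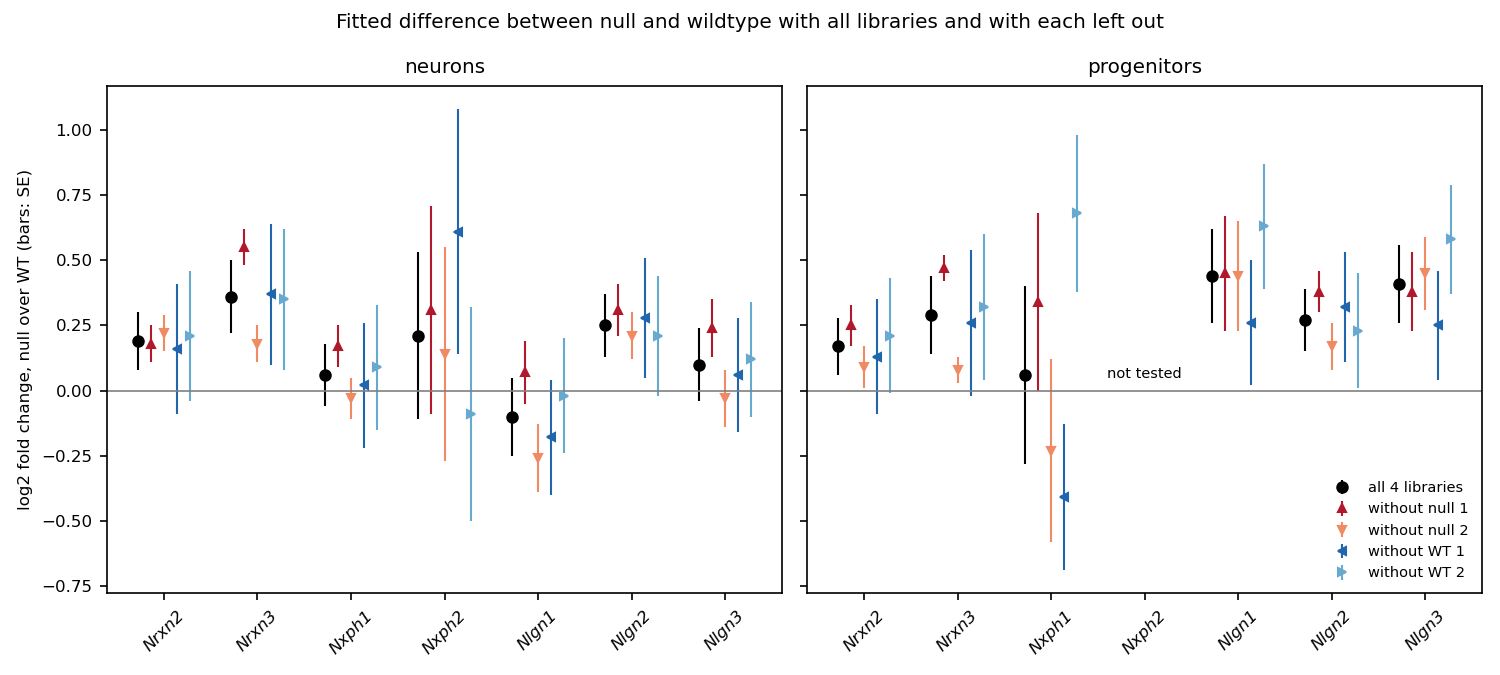
Fitted log2 fold change of null over WT (vertical axis, bars are the SE) for each gene in neurons and in progenitors, with all 4 libraries (black) and with each library left out (colours). Nrxn3 is at 0.55 without null replicate 1 and at 0.18 without null replicate 2 in neurons, and at 0.47 and 0.08 in progenitors, and Nxph2 was not tested in progenitors.

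Nrxn3 had the largest difference among the members in the fit to all neurons of the 4 libraries, though not in every alternative. After scaling by TMM (a scaling of libraries by the trimmed mean of gene ratios), the null libraries held 778 and 998 CPM and the WT libraries 696 and 687 CPM. The null libraries lay above both WT libraries, by little in null replicate 1 and by much in null replicate 2. The log2 fold change was 0.36 (SE 0.14, unadjusted p = 0.0314, adjusted p = 0.243, edgeR). Without null replicate 1 it was 0.55 (adjusted p = 0.000866), in a fit that called 20.6% of all genes, and without null replicate 2 it was 0.18 (adjusted p = 0.192). Within null replicate 2 the level was 1089 CPM in male and 1106 CPM in female neurons, and the male neurons of null replicate 1, WT 1 and WT 2 held 805, 652 and 680 CPM. With male cells alone the log2 fold change was 0.38 (adjusted p = 0.317), and with equal numbers of cells per cluster it was 0.26 (adjusted p = 0.408). In progenitors of null replicate 1, male cells held 268 CPM and female cells 232 CPM (counting intervals 259 to 277 and 223 to 242), and in null replicate 2 the order was the other way, with 358 and 384 CPM (342 to 374 and 373 to 395). The progenitor levels after scaling were 256, 333, 236 and 246 CPM and the log2 fold change was 0.29 (SE 0.15, adjusted p = 0.352), which became 0.47 (adjusted p = 0.000184) without null replicate 1, where 29.6% of all genes were called, and 0.08 (adjusted p = 0.388) without null replicate 2.

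Nlgn2 and Nrxn2 had null libraries above WT libraries in either class. Nlgn2 was at 50.5 and 53.6 CPM in null neurons and 44.9 and 42.7 CPM in WT neurons after scaling (log2 fold change 0.25, SE 0.12, adjusted p = 0.313, edgeR). Without null replicate 1 its adjusted p was 0.0493 in neurons and 0.01 in progenitors, with log2 fold changes of 0.31 and 0.38. Without null replicate 2 these were 0.21 (adjusted p = 0.266) and 0.17 (adjusted p = 0.291), and without a WT library the adjusted p was between 0.748 and 0.895 in either class. Nrxn2 was at 196 and 190 CPM against 166 and 172 CPM in neurons (log2 fold change 0.19, SE 0.11, adjusted p = 0.411, edgeR). In progenitors its log2 fold change was 0.17 (SE 0.11, adjusted p = 0.47, edgeR), which was 0.05 (adjusted p = 0.846) with male cells alone and 0.09 (adjusted p = 0.53) without null replicate 2. Within null replicate 2, Nrxn2 stood at 183 CPM in male and 218 CPM in female neurons (counting intervals 170 to 197 and 210 to 226) and at 58.5 and 72.7 CPM in male and female progenitors (52.2 to 65.3 and 68.1 to 77.5). Null replicate 1 had no such gap, with 201 and 192 CPM in male and female neurons and 54.8 and 56.5 CPM in male and female progenitors, each pair with overlapping intervals. In neurons, null and WT libraries did not overlap for these 2 genes and Nrxn3, 3 of 7, and this held for 51.5% of all genes tested. In progenitors it held for 5 of the 6 members tested, all but Nxph1, and for 52.5% of all genes. These shares of all genes count either direction. The members named had null above WT, as did 3527 of 13622 genes in neurons and 3589 of 13586 in progenitors. With library totals in place of TMM the median of all genes moved up by 0.14 in neurons and 0.19 in progenitors, and Nrxn3 in neurons was then called, at 0.52 (adjusted p = 0.0433), with 3.79% of all genes.

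Nlgn1 and Nlgn3 had larger fold changes in progenitors than in neurons. After scaling, Nlgn1 in progenitors was at 7.06 and 7.08 CPM for null, 4.56 and 5.91 CPM for WT, a difference of 0.44 (SE 0.18, adjusted p = 0.282, edgeR) on the log2 scale, and Nlgn3 at 13.7 and 13 CPM against 8.93 and 11.2 CPM (0.41, SE 0.15, adjusted p = 0.239, edgeR). Without WT replicate 1 these were 0.26 and 0.25, and without WT replicate 2 they were 0.63 and 0.58. In neurons the log2 fold changes were -0.10 (SE 0.15) and 0.10 (SE 0.14). A fit of the difference between the classes, with the library as a block, was added after these values were seen. It gave -0.52 (SE 0.17, unadjusted p = 0.00378, adjusted p = 0.193, edgeR) for Nlgn1 and -0.30 (SE 0.14, adjusted p = 0.559, edgeR) for Nlgn3, null minus WT on the log2 scale of neurons over progenitors. None of the 7 genes passed an adjusted p of 0.05 there, and 106 of 14344 genes did (0.739%). Male and female cells of the same null library held close levels of the X-linked Nlgn3, 24.1 and 24.5 CPM in the neurons of null replicate 1 and 29.0 and 30.1 CPM in those of null replicate 2 (24.0 to 34.8 and 27.2 to 33.4).

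Neither neurexophilin passed the test over class sums. Nxph1 was at 98, 112, 97.9 and 103 CPM in neurons after scaling (log2 fold change 0.06, SE 0.12, adjusted p = 0.819, edgeR), and its sign turned in 3 of the alternatives in neurons. Within null replicate 2 it stood at 107 CPM in male and 134 CPM in female neurons (counting intervals 96.8 to 117 and 128 to 141), and within null replicate 1 at 100 and 103 CPM (93.9 to 107 and 95.5 to 111). For Nxph2 the difference was 0.21 on the log2 scale (SE 0.32, adjusted p = 0.76, edgeR). Within clusters with at least 40 UMIs of the gene, both null libraries of Nxph1 lay above both WT libraries in 2 of 13 and below them in 5. Over all genes this held for 26.4% and 14.7% of pairs of a gene and a cluster. For Nrxn3 the counts were 13 above and 2 below of 19 clusters, for Nrxn2 13 and 0 of 19, for Nlgn2 13 and 0 of 17, for Nlgn3 3 and 0 of 16 and for Nlgn1 1 and 1 of 14. The clusters share their libraries, CPM of a cluster were not scaled by TMM, and these counts were added after the values were seen. Over all neurons, library totals in place of TMM moved the median log2 fold change of all genes up by 0.14. For Nxph1 in cluster 2 the null libraries held 98.2 and 114 CPM, below the WT libraries with 191 and 188 CPM. In cluster 10 the null libraries, with 84.3 and 109 CPM, lay above the WT libraries with 36.9 and 42.3 CPM. In these 2 clusters, which were chosen after their values were seen, 39.7% and 46.6% of genes with at least 40 UMIs had null and WT libraries that did not overlap, and no test within clusters was run. With equal numbers of cells of each cluster from every library, the log2 fold change of Nxph1 over all neurons was -0.17 (adjusted p = 0.528).

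The other genes of the pathway were taken from a list of 39 partner genes. In neurons 36 and in progenitors 32 of them were tested, 0 passed an adjusted p of 0.05 in either class (edgeR), and the median log2 fold change was 0.09 in either class. Among the postsynaptic scaffolds, Dlg4, which encodes PSD-95, a binding partner of neuroligins, had the largest value in neurons, 0.61 (SE 0.13, adjusted p = 0.0727), and Gphn, the gephyrin gene of inhibitory synapses, the lowest, -0.24 (SE 0.12, adjusted p = 0.352). In progenitors Shank2 was at 0.63 (SE 0.20, adjusted p = 0.22) and Dlg2 at -0.83 (SE 0.45, adjusted p = 0.379). Among the other surface partners of neurexins, the cerebellins Cbln2 and Cbln4 marked the ends in neurons at 0.48 (SE 0.31) and -0.49 (SE 0.57), and Lrrtm2 and Lrrtm4 in progenitors at 0.34 (SE 0.19) and -0.47 (SE 0.40). Of the presynaptic adaptors, Mpdz and Lin7a were at 0.13 (SE 0.12) and -0.49 (SE 0.22) in neurons and at 0.40 (SE 0.11) and -0.40 (SE 0.39) in progenitors. Mdga1 and Mdga2, whose products block the binding of neuroligins to neurexins, were at 0.16 (SE 0.27) and -0.11 (SE 0.22) in neurons and at 0.31 (SE 0.22) and 0.04 (SE 0.25) in progenitors.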

How the data were processed

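The 7 genes, the partner lists and the tests were chosen with earlier results of these data known. The authors sequenced MGE cells of 4 pools on the 10x Genomics platform and deposited UMI counts per gene and barcode from Cell Ranger 5.0.1 (per the labels, the file headers name version 4), mapped to GRCm38, with no normalization and with empty droplets included. Strand and the use of intronic reads were not given in the sources used here. Coordinates are those of GENCODE M21, which holds 99.8% of the gene IDs, and start sites are RefSeq's.

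Barcodes with at least 3000 UMIs, 200 genes and at most 10% mitochondrial UMIs were kept. Scrublet's own threshold marked at most 0.0887% of the cells of a library, so a share of 0.8% per 1000 cells, those scoring highest, was removed, or 120 to 352 per library. Total counts were 70991150 to 92984713 UMIs per library, and intervals cover counting error only. Cells were clustered in Seurat 5.3.0 (2000 variable genes without the 7, 49 components, resolution 1.4), and clusters were assigned to classes by marker scores. Levels are CPM of summed counts. Null and WT sums per class were compared with edgeR 4.0.16 (TMM, filterByExpr, quasi-likelihood test, two-sided, Benjamini-Hochberg over all genes tested), and DESeq2 1.42.0 was an alternative. On simulated counts for neurons the test recovered 81% of 2-fold and 96% of 4-fold changes among 200 changed genes, with 22 false calls, more than the threshold implies. Changes under 2-fold, as fitted for the members, were not simulated. Named genes are the 7, the genes with the highest and lowest fold change of each partner list, and the 3 genes most alike over clusters, where r was taken on log2(CPM + 10). 1 gene of the partner lists is not reported by name. Alternatives were other scalings, no count filter, 5000 UMIs, more doublets removed, male cells, equal cells per cluster, off-target clusters left out, another resolution, and each library left out. Xist served to read sex, and St18 is given as the targeted gene.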

Additional observations from a re-analysis of the deposited data

How the results depend on the processing

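No paired analysis was possible because the labels give the libraries no replicate numbers, so the numbers used here pair nothing. The number of the 7 genes called in neurons, 0, ranged from 0 to 2 when 1 library was left out, and was 1 with library totals alone. In progenitors it ranged from 0 to 2 when 1 library was left out. The 2 genes called in either class were Nrxn3 and Nlgn2, without null replicate 1, where the lone null library is assumed to vary like the WT libraries and where 2829 of 13700 genes in neurons and 4080 of 13796 in progenitors were called. The other alternatives called 0 members.

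Over all genes, calls moved far more. In neurons the 10 calls became 39 with RLE size factors, 516 with library totals, 295 with DESeq2, 238 with no count filter, 77 with more doublets removed, 115 with off-target clusters left out, 5 with equal cells per cluster, 1 with male cells, and 67 to 2829 with 1 library left out. In progenitors the 2 calls became 73 with library totals, 315 with DESeq2, 911 with no count filter, 4 with 5000 UMIs or more doublets removed, 3 with off-target clusters left out, 0 with male cells, where 1983 genes had an unadjusted p under 0.05 (edgeR), and 7 to 4080 with 1 library left out. The cause was not tested.

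Signs of small log2 fold changes turned. In neurons Nxph1 was at -0.03 without null replicate 2, -0.03 with male cells and -0.17 with equal cells per cluster. Nxph2 was at -0.09 without WT replicate 2 and -0.28 with equal cells per cluster. Nlgn1 was at 0.05 with library totals and 0.07 without null replicate 1, and Nlgn3 at -0.03 without null replicate 2. In progenitors Nxph1 was at -0.23 without null replicate 2, -0.41 without WT replicate 1 and -0.14 with male cells. With each library left out in turn, the values ran in neurons from -0.03 to 0.17 for Nxph1, -0.09 to 0.61 for Nxph2, -0.26 to 0.07 for Nlgn1 and -0.03 to 0.24 for Nlgn3, and in progenitors from -0.41 to 0.68 for Nxph1.

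The neuron over progenitor ratios kept their direction in every alternative that gave a value. The 6 genes at least 2-fold higher in every library became 5 with off-target clusters left out and 7 without null replicate 1. Nxph2 has none with male cells or with thinned cells, where progenitors held 0 UMIs in a library. With 2 libraries per group and pools of unstated size, depth and library differences limit the genotype comparison.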
